A study of Homo sapiens with 8 samples.

Results

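Matrix metalloproteinases and the urokinase system were followed through 8 genes: MMP1, MMP2, MMP14, MMP15, MMP16, TIMP2, PLAU and PLAUR. They were chosen by gene symbol, and every probe set that the platform's annotation gives to them was read, which made 9 probe sets, with 2 for MMP16 and 1 for each other gene. These are 8 of 18417 named genes and 9 of 33297 probe sets. Total RNA came from 2 established human prostate cancer cell lines: DU145, which grows without androgen, and LNCaP, which responds to androgen. Cells of each line were transfected with siTET2 (an siRNA against the DNA demethylase TET2), siControl (a control siRNA), miR-29b (a microRNA) or nc (a negative control miRNA), and RNA was taken 72 hours later. There was 1 array for each line and construct, 8 in all, so no group has a replicate. All cells were transfected, and no untransfected cells were measured here. Values are log2 expression values made by RMA, which summarises the probes of a probe set on each array.

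Metalloproteinases are zinc enzymes that cut proteins of the extracellular matrix. Some are secreted as inactive precursors, as MMP1 (a collagenase) and MMP2 (a gelatinase) are, and others are anchored in the cell membrane, as MMP14, MMP15 and MMP16 are. MMP14 activates the MMP2 precursor at the cell surface, with TIMP2 as the bridge between them, while free TIMP2 inhibits metalloproteinases. Urokinase, encoded by PLAU, turns plasminogen into plasmin, and its receptor PLAUR holds it at the cell surface. Plasmin in turn activates several metalloproteinase precursors. Both systems are known for their part in invasion of prostate cancer cells. AP-1 factors (FOS and JUN family members) and ETS factors are known regulators of MMP1, PLAU and PLAUR.

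The sequences below are those of the transfected microRNA and of the promoters of the urokinase genes, whose levels separated the lines most clearly among the genes with a promoter sequence at hand. The labels name miR-29b without its arm. RefSeq gives hsa-miR-29b-3p for 2 loci of GRCh38.p14, chr1:207802450-207802472 and chr7:130877467-130877489, both on the minus strand, with the same mature sequence. Its seed, bases 2 to 8, is in capitals.
hsa-miR-29b-3p: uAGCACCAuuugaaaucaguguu
RefSeq's promoter windows run from 250 bases before to 50 bases after a start site. PLAUR has 1 window, chr19:43670120-43670419 on the minus strand, and PLAU has 2 on the plus strand, chr10:73910360-73910659 and chr10:73910882-73911181. The AP-1 motif TGANTCA, which reads the same on both strands, is in capitals.
PLAUR promoter: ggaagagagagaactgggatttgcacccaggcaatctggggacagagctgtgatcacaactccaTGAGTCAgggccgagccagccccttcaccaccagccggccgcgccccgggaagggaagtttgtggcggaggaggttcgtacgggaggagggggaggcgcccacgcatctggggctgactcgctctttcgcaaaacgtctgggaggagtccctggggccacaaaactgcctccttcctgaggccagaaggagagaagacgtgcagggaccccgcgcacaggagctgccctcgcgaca
PLAU promoter, first window: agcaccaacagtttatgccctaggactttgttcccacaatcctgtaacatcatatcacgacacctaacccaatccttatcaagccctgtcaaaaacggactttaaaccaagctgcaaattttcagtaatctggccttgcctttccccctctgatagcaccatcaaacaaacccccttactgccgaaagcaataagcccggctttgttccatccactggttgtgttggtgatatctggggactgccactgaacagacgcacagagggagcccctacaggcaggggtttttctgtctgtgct
PLAU promoter, second window: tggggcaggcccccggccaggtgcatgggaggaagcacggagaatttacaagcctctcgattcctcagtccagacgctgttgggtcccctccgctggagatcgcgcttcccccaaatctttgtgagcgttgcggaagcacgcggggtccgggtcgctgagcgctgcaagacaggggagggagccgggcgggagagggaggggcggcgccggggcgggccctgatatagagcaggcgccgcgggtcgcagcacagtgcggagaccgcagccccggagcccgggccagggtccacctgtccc
The PLAUR window holds 1 match, TGAGTCA, whose first base lies at -186 from the start site. Both PLAU windows hold 0, as do those of MMP14 and MMP15. Of all 35116 promoter windows, 2707 (7.71%) hold the motif. The GC content was 64.0% in the PLAUR window, against 48.7% in the first and 70.0% in the second PLAU window. A match is a description of these letters only.

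The arrays matched their labels by marker genes. Of 12 measured DU145 markers, 9 lay above the array's median over named genes on every DU145 array, against 1 (EGFR) on every LNCaP array. Of 7 measured LNCaP markers, 1 (STEAP2) did so on every DU145 array, against 6 to 7 on the LNCaP arrays. Fibroblast markers reached it in 0 or 1 of 11 (COL1A1), endothelial markers in 0 of 7 and immune cell markers in 1 of 11 (CD68) on each array. The targeted gene TET2 had 6.60 with siTET2 and 7.85 with siControl in DU145, and 7.89 with siTET2 and 9.01 with siControl in LNCaP. The medians over all probe sets lay between 6.59 and 6.66 on the DU145 arrays and between 7.10 and 7.17 on the LNCaP arrays. Differences between the lines are therefore also given with each array centred on its median over named genes.

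The widest differences in these genes lay between the lines, and they divided the genes into sets. Urokinase, its receptor, TIMP2, MMP1 and MMP14 were higher in DU145. MMP16 was higher in LNCaP. The MMP15 ranges of the lines overlapped, and MMP2 was low in both. Because the RNA came from whole cultures, fewer cells expressing a gene and less RNA per cell cannot be told apart.

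PLAU had 12.48 with siTET2, 12.17 with siControl, 12.09 with miR-29b and 12.20 with nc in DU145. LNCaP had 6.54 with siTET2, 6.44 with siControl, 6.46 with miR-29b and 6.60 with nc. The 4 DU145 values did not overlap the 4 LNCaP values, and they stood at the 98.7 to 99.3 percentile of the named genes of their array, against the 29.8 to 32 percentile in LNCaP. The gene lies at chr10:73908832-73917494 of GRCh38.p14.

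PLAUR, at chr19:43646095-43670169, had 9.88, 9.77, 9.74 and 9.78 in DU145 with siTET2, siControl, miR-29b and nc. In LNCaP it had 6.72 with siTET2, 6.49 with siControl, 6.98 with miR-29b and 6.91 with nc. The receptor therefore separated the lines like its ligand, with all DU145 arrays at the 84.3 to 85.9 percentile and all LNCaP arrays at the 32.7 to 38.1 percentile.

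TIMP2, the metalloproteinase inhibitor at chr17:78852977-78925387, had 11.67 with siTET2, 11.28 with siControl, 11.22 with miR-29b and 11.44 with nc in DU145. LNCaP had 9.04, 8.56, 8.49 and 8.66 with the same constructs in the same order. It was above the median of named genes in both lines, at the 96.1 to 97.8 percentile in DU145 and the 62.4 to 71.5 percentile in LNCaP.

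MMP1, the collagenase at chr11:102789919-102798160, had 10.45 with siTET2, 10.64 with siControl, 9.30 with miR-29b and 9.34 with nc in DU145. The LNCaP arrays had 4.91, 4.92, 5.14 and 5.22, all at or below the 10.6 percentile of the array. Within DU145 both siRNA arrays lay above both miRNA arrays, a split described further with the controls.

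MMP14, the membrane-type activator of MMP2 at chr14:22836585-22847758, had 8.496, 8.41, 8.13 and 8.31 in DU145 with siTET2, siControl, miR-29b and nc. In LNCaP it had 6.52, 6.46, 6.78 and 6.91, below the median of named genes on each array. MMP2 itself, at chr16:55478830-55506691, had 5.47, 5.14, 5.86 and 5.36 in DU145, against 6.06, 5.99, 6.16 and 6.28 in LNCaP. It lay between the 20.5 and 28.7 percentile of named genes on all 8 arrays.

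MMP15, a membrane-type metalloproteinase at chr16:58025754-58046901, had 8.18 with siTET2, 8.30 with siControl, 8.30 with miR-29b and 8.62 with nc in DU145. In LNCaP it had 8.72 with siTET2, 8.61 with siControl, 8.14 with miR-29b and 8.93 with nc. The ranges of the lines overlapped.

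MMP16, another membrane-type metalloproteinase, showed the reverse of the urokinase genes. The probe set with the higher mean (8151686) had 3.84, 4.16, 3.87 and 3.96 in DU145 with siTET2, siControl, miR-29b and nc, against 9.95, 10.08, 9.67 and 10.11 in LNCaP. The other probe set (8151684) had 3.65, 3.45, 3.21 and 3.04 in DU145, against 9.78, 10.10, 9.56 and 10.12 in LNCaP. Both probe sets separated the lines in the same direction without overlap, and both had miR-29b as their lowest LNCaP array.

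**Figure D1:**
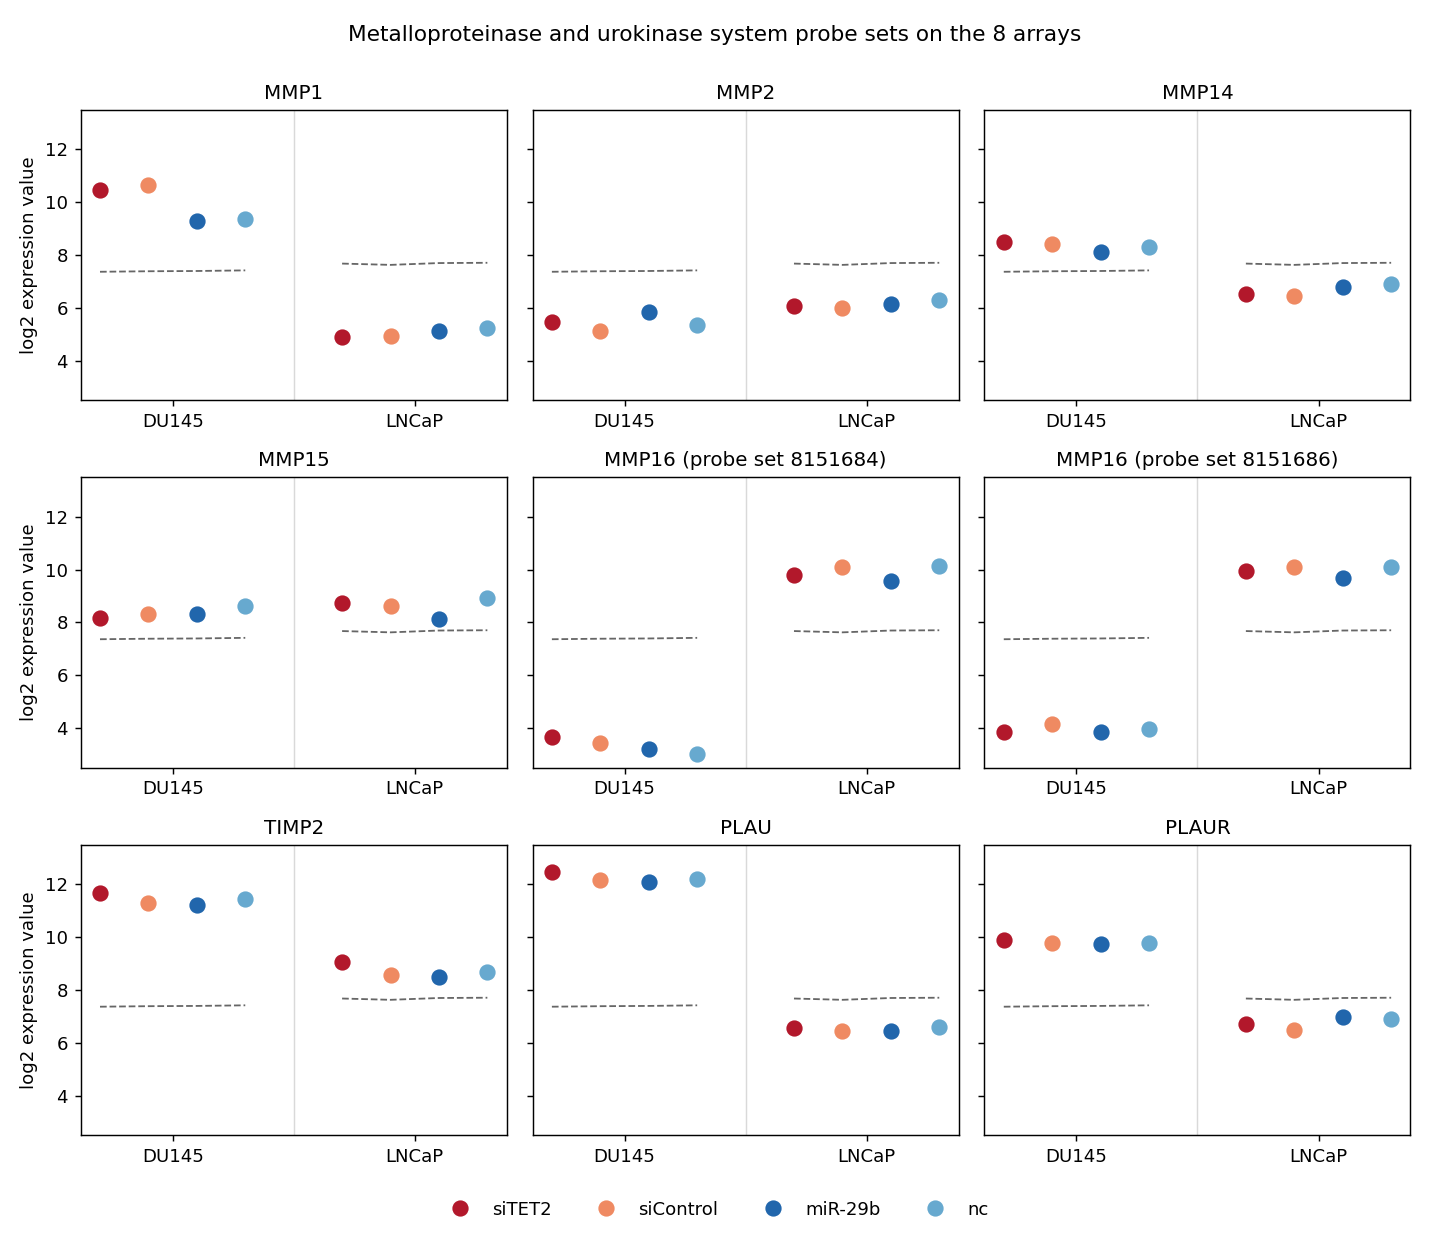
Log2 expression value (vertical axis) of each probe set on the 4 DU145 arrays and the 4 LNCaP arrays, 1 point an array, coloured by construct; the dashed line is the array's median over named genes. PLAU, PLAUR, TIMP2, MMP1 and MMP14 sit higher in DU145, both MMP16 probe sets sit higher in LNCaP, and MMP1 in DU145 splits into siRNA arrays at 10.45 and 10.64 and miRNA arrays at 9.30 and 9.34.

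Line differences were tested with limma, in a model with 1 term for the line and 1 for the construct, which leaves 3 residual degrees of freedom from the 8 arrays. P-values were adjusted by Benjamini-Hochberg over all genes tested. The fit covered the 9209 named genes whose mean over the arrays reached the median of all gene means. Of these genes, 81.8% differed between the lines at an adjusted p under 0.05, so that a call by itself says little. TIMP2 and MMP15 were above the array's median over named genes in both lines. TIMP2 was higher in DU145 by 2.72 (SE 0.0609, limma adjusted p = 1.14e-09). MMP15 differed by -0.25 (SE 0.105, limma adjusted p = 0.05), which did not pass, and by 0.03 with centred arrays (limma adjusted p = 0.786).

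The other genes were below that median in 1 line or both, and their line differences come from the same fit over all 18417 named genes, with no filter on level, where 85.4% passed. PLAU was higher in DU145 by 5.72 (SE 0.0832, limma adjusted p = 5.6e-10). PLAUR was higher by 3.02 (SE 0.101, limma adjusted p = 3.56e-08). MMP1 was higher by 4.89 (SE 0.269, limma adjusted p = 6.78e-07), the widest SE of the 8 genes. MMP14 was higher by 1.67 (SE 0.124, limma adjusted p = 3.9e-06). MMP16 was lower in DU145, with a difference of -5.995 (SE 0.0847, limma adjusted p = 5.6e-10). The DU145 arrays had both MMP16 probe sets, and the LNCaP arrays had MMP1, near the bottom of the array, so these sizes are differences of array values and not exact folds of RNA. MMP2 differed by -0.67 (SE 0.11, limma adjusted p = 0.000457), against a median difference of all named genes of -0.52. Centred arrays gave 6.01 for PLAU, 5.17 for MMP1, 3.30 for PLAUR, 3.001 for TIMP2, 1.95 for MMP14, -0.38 for MMP2 and -5.71 for MMP16. The share of called genes that were higher in DU145 was 33.8% of 7532 as deposited and 53.1% of 7254 with centred arrays, so a small line difference depends on the scaling.

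**Figure D2:**
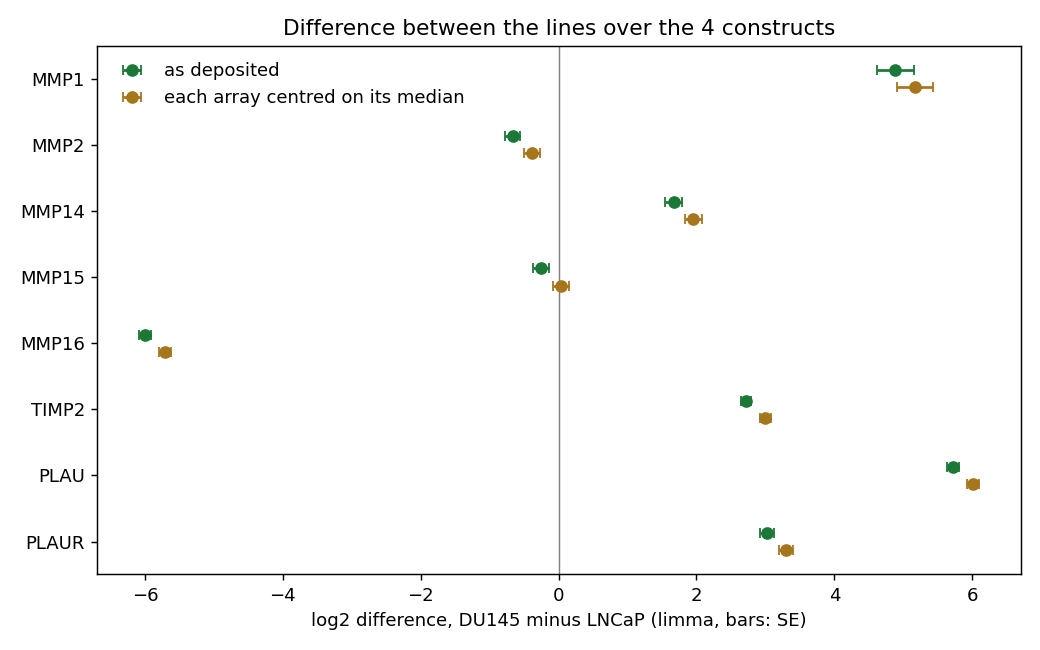
Difference DU145 minus LNCaP of the log2 expression value (horizontal axis) for each gene from limma over all named genes, as deposited and with each array centred on its median; points are estimates over 4 arrays a line and bars are the SE. PLAU, MMP1, PLAUR, TIMP2 and MMP14 lie right of 0, MMP16 lies at -5.995 and -5.71, and MMP15 lies on either side of 0 with the scaling.

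For each construct, the difference from its own control was read within a line. A difference between 2 arrays has no replicate and no p-value. Genes were counted at 1.5-fold apart (0.585 on the log2 scale) if the higher of both arrays reached that array's median over named genes, the level floor. MMP1, MMP14, MMP15, TIMP2, PLAU and PLAUR passed this floor in DU145, and MMP15, MMP16 and TIMP2 did so in LNCaP. The other control array of the line gave a second difference, and siControl minus nc gave the background.

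With siTET2, no gene of the 8 was 1.5-fold apart from siControl: 0 of 6 above the floor in DU145 and 0 of 3 in LNCaP. Over all genes above the floor, 2.55% of 9424 in DU145 and 2.75% of 9416 in LNCaP were that far apart. TIMP2 had the largest difference of those above the floor in both lines. In DU145 it had 11.67 with siTET2, against 11.28 with siControl and 11.44 with nc, differences of 0.39 and 0.23. In LNCaP it had 9.04 with siTET2, against 8.56 with siControl and 8.66 with nc, differences of 0.48 and 0.38. The siTET2 array was thus the highest of its line for TIMP2 in both lines, by 1.31-fold over siControl in DU145 and 1.40-fold in LNCaP. Of all genes above the floor, 8.5% in DU145 and 4.79% in LNCaP were at least as far apart. Between the controls, TIMP2 differed by -0.16 in DU145 and -0.10 in LNCaP (siControl minus nc).

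In the limma fit common to both lines, TIMP2 was 0.44 higher with siTET2 (SE 0.0862, unadjusted p = 0.000782), but its adjusted p of 0.0766 did not pass. It had the 94th smallest p of 9209 genes, of which 35 (0.38%) passed, 3 of them higher and 32 lower, and 1266 had an unadjusted p under 0.05. Over the alternatives tried, the adjusted p of TIMP2 ran from 0.036 to 0.615, and it passed with a stricter floor (0.036) and with a variance trend (0.0414). Of genes above the floor in both lines, 15.3% of 8183 were higher with siTET2 than on both control arrays in both lines. TIMP2 was among them and MMP15 was not.

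The urokinase genes showed smaller differences with siTET2. PLAU in DU145 had 12.48 with siTET2, against 12.17 with siControl and 12.20 with nc, differences of 0.31 and 0.27 that 15.1% of genes equalled or exceeded in size against siControl. In LNCaP, where it is low, PLAU differed by 0.10 from siControl and by -0.06 from nc. PLAUR differed from siControl by 0.11 in DU145 and 0.23 in LNCaP, and from nc by 0.09 and -0.19. In the common fit PLAU had 0.20 (SE 0.104, limma adjusted p = 0.429), which was 0.063 without the DU145 siTET2 array, 0.35 without the LNCaP siTET2 array and 0.11 against nc. PLAUR, like PLAU under the floor in LNCaP, had 0.17 (SE 0.13, limma adjusted p = 0.612). PLAUR turned to -0.05 when nc replaced siControl.

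Among the metalloproteinases, MMP1 in DU145 had 10.45 with siTET2 and 10.64 with siControl, a difference of -0.19, but 9.34 with nc, a difference of 1.11. MMP14 in DU145 differed by 0.09 from siControl and 0.19 from nc. MMP15 differed from siControl by -0.13 in DU145 and 0.11 in LNCaP, opposite in sign, and by -0.44 and -0.21 from nc, with -0.01 in the common fit (SE 0.148, limma adjusted p = 0.988). MMP16 in LNCaP differed from siControl by -0.13 on one probe set and -0.32 on the other. In DU145, where both are near the bottom of the array, the same probe sets gave -0.32 and 0.20, opposite in sign. The fit over all named genes takes in both lines and only probe set 8151686, the first of these. It gave -0.23 (limma adjusted p = 0.691). MMP2 stayed under the floor, with differences from siControl of 0.33 in DU145 and 0.07 in LNCaP.

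**Figure D3:**
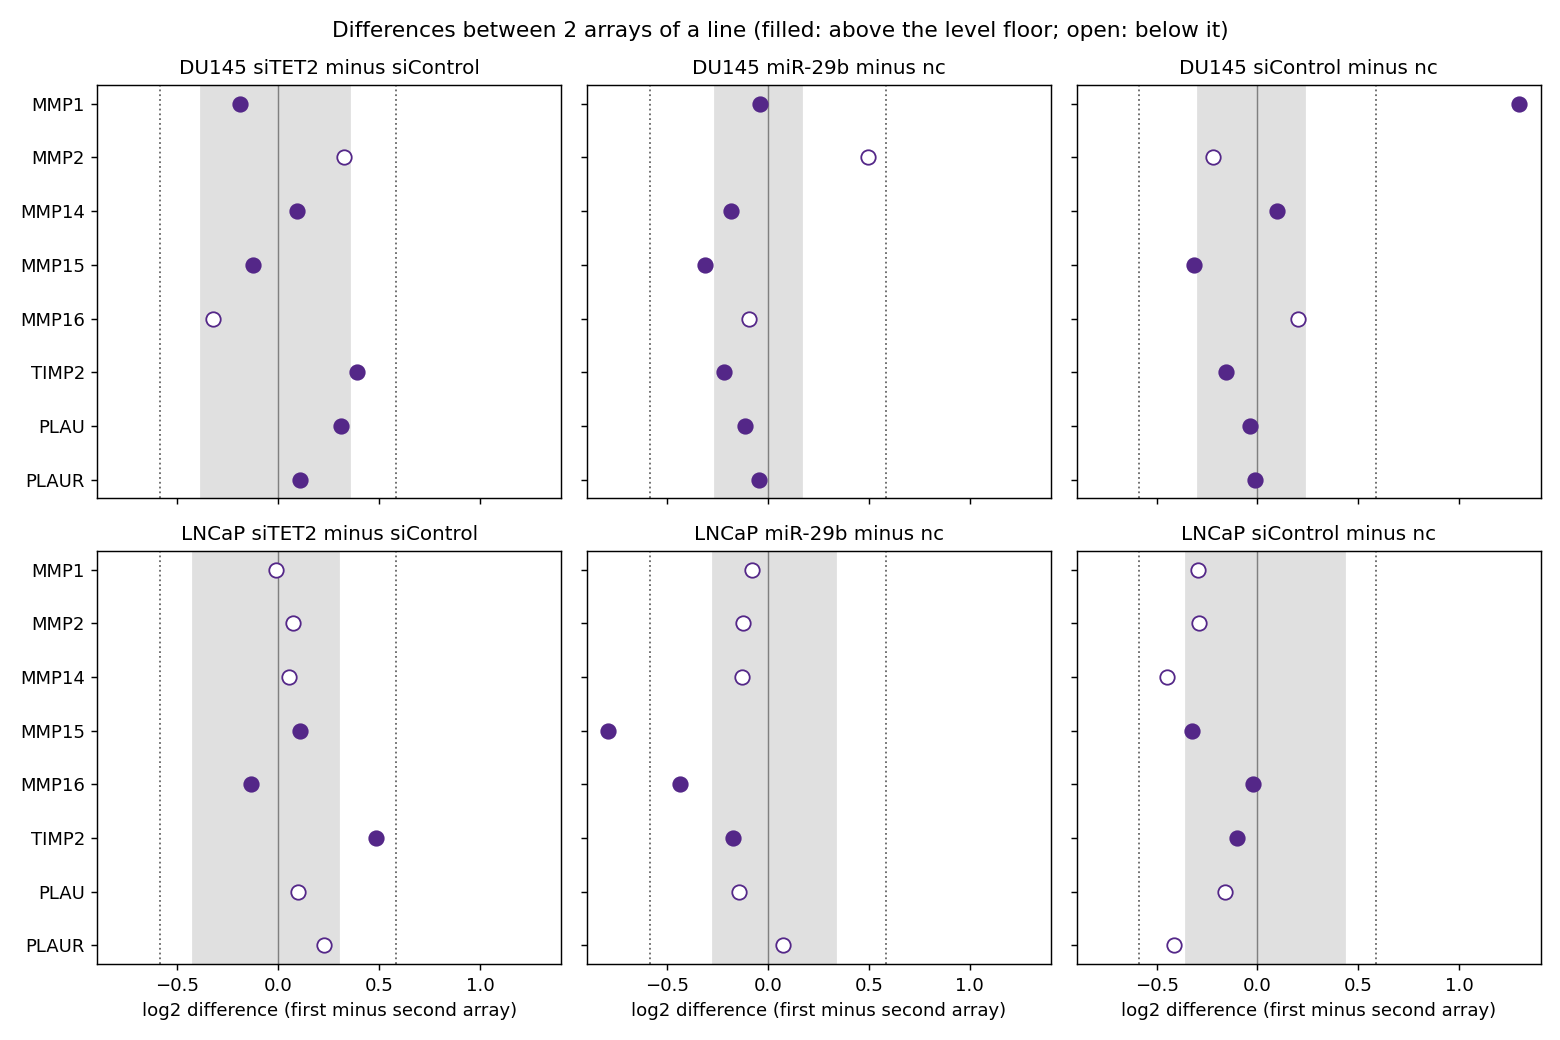
Log2 difference (horizontal axis) of each gene between 2 arrays of a line, for siTET2 minus siControl, miR-29b minus nc and siControl minus nc, with DU145 in the upper and LNCaP in the lower panels. MMP16 is its probe set 8151686. Filled points pass the level floor, grey bands hold the central 90% of all genes above it and dotted lines mark 1.5-fold; MMP15 in LNCaP lies at -0.79 with miR-29b and MMP1 in DU145 lies at 1.30 between the controls.

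With miR-29b, 0 of 6 genes above the floor were 1.5-fold apart from nc in DU145, where 0.117% of 9395 genes were. In LNCaP 1 of 3 was, MMP15, where 0.847% of 9444 genes were. In LNCaP MMP15 had 8.14 with miR-29b and 8.93 with nc, a difference of -0.79 or 1.73-fold lower. Only 22 genes (0.233%) were at least that far apart. Against siControl, at 8.61, the difference was -0.47, under 1.5-fold, and siControl itself stood -0.32 from nc. The miR-29b array was the lowest of the 4 LNCaP arrays for MMP15. In DU145 MMP15 had 8.30 with miR-29b and 8.62 with nc, a difference of -0.31 that 3.6% of genes equalled or exceeded, but siControl was also at 8.30. The common fit gave -0.55 (SE 0.148, unadjusted p = 0.0052), and limma adjusted p = 0.995. It was -0.28 without the LNCaP miR-29b array, -0.83 without the DU145 miR-29b array and -0.23 against siControl, so it rests largely on the LNCaP array.

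No gene of 9209 passed in the miR-29b fit (0.0%), and 344 had an unadjusted p under 0.05. The count was also 0 in the fit with a variance trend.

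MMP16 was the other gene with a difference outside the central 90% in LNCaP. There it had 9.67 with miR-29b, against 10.11 with nc and 10.08 with siControl, differences of -0.43 and -0.41, and 3.36% of genes were as far apart from nc. The second probe set gave -0.56 and -0.54. The miR-29b array was the lowest LNCaP array on both probe sets, while the control arrays differed by -0.02 on each. In DU145, where both probe sets are near the bottom of the array, the differences from nc were -0.09 and 0.17. The fit over all named genes gave -0.26 (SE 0.12, limma adjusted p = 1).

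TIMP2 was the lowest on the miR-29b array of both lines. It had 11.22 with miR-29b and 11.44 with nc in DU145, and 8.49 with miR-29b and 8.66 with nc in LNCaP, differences of -0.22 and -0.17. Against siControl they were -0.06 and -0.07. The common fit gave -0.19 (SE 0.0862, unadjusted p = 0.0521, limma adjusted p = 0.995). Of 8191 genes above the floor in both lines, 10.4% were lower with miR-29b than on both control arrays in both lines. Both members above the floor in both lines, MMP15 and TIMP2, were among these genes, MMP15 by only 0.0008 below siControl in DU145.

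The other genes above the floor in DU145 differed from nc by less than MMP15 did. PLAU differed by -0.11 in DU145 and -0.14 in LNCaP, with -0.13 in the common fit (limma adjusted p = 0.995). PLAUR differed by -0.05 in DU145 and 0.07 in LNCaP, with 0.01 in the fit (limma adjusted p = 0.996), and MMP1 by -0.04 and -0.08. MMP14 in DU145 had 8.13 with miR-29b and 8.31 with nc, a difference of -0.18. MMP2 in DU145 had 5.86 with miR-29b and 5.36 with nc, a difference of 0.50 at a level under the floor, so it was not counted.

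The controls themselves differed most in MMP1. In DU145 it had 10.64 with siControl and 9.34 with nc, a difference of 1.30 or 2.46-fold, the largest of all 9373 genes above the floor. Here 1 of 6 genes above the floor was 1.5-fold apart, against 0.341% of all genes, and in LNCaP 0 of 3 were, against 2.31% of 9531. The siRNA arrays of DU145 had 10.45 and 10.64 and its miRNA arrays had 9.30 and 9.34, so the values separated by the kind of construct. Read against the control of the other kind, the differences of MMP1 in DU145 were 1.11 with siTET2 and -1.34 with miR-29b. In LNCaP, where MMP1 is under the floor, siControl stood -0.30 from nc.

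In DU145 the siControl minus nc differences of PLAU, PLAUR and TIMP2 were -0.04, -0.01 and -0.16. MMP14 had the same order as MMP1, with both siRNA arrays above both miRNA arrays, but siControl stood only 0.10 from nc. In LNCaP PLAUR (-0.41) and MMP14 (-0.45) were lower with siControl than with nc, both under the floor. MMP15 was lower with siControl in both lines, with differences of -0.31 in DU145 and -0.32 in LNCaP. The common fit of the controls called none of the 9209 genes (0.0%) and had 1212 with an unadjusted p under 0.05. For MMP15 it gave -0.32 (limma adjusted p = 0.382), for PLAUR -0.21 (limma adjusted p = 0.457), for TIMP2 -0.13 (limma adjusted p = 0.493) and for PLAU -0.10 (limma adjusted p = 0.643).

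Further genes of pericellular proteolysis were read from 9 lists: secreted and other membrane-type metalloproteinases, metalloproteinase inhibitors, the plasminogen system, activators of protease precursors, ADAM and ADAMTS proteases, AP-1, ETS and NF-kappaB factors, inducers of metalloproteinases, and matrix substrates with their receptors. They hold 124 genes, of which 116 were measured and 58 entered the common fits. The list of activators also holds the inhibitors SPINT1 and SPINT2. With limma, 0 of the 58 passed for siTET2 (7 had an unadjusted p under 0.05), 0 for miR-29b (3) and 0 for the controls (3). With a variance trend, 1 passed for siTET2, ADAM10.

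Of 14 secreted metalloproteinases, 0 passed the level floor in DU145 and 2, MMP7 (matrilysin) and MMP11 (a stromelysin), passed it in LNCaP. MMP7 averaged 3.94 in DU145 and 8.82 in LNCaP, a difference of -4.89 (SE 0.116, limma adjusted p = 5.42e-09 over all named genes). The other secreted metalloproteinases had line differences from -1.11 (MMP10) to -0.36 (MMP26), and the list's median was -0.87, against -0.52 for all genes. MMP7 in LNCaP had 9.24 with miR-29b, against 8.53 with nc and 8.84 with siControl, differences of 0.71 and 0.41. MMP11 in LNCaP had 7.81 with siTET2, against 7.61 with siControl and 7.97 with nc, between both controls. Of 3 other membrane-type enzymes measured, MMP24 passed the floor in DU145 for miR-29b minus nc and siControl minus nc. For siTET2 minus siControl it did not pass in DU145. It had 7.40 there with miR-29b, against 7.57 with nc and 6.90 with siControl, and its controls stood over 1.5-fold apart.

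TIMP1, an inhibitor related to TIMP2, averaged 11.25 in DU145 and 6.88 in LNCaP, a difference of 4.37 (limma adjusted p = 2.93e-09). RECK, a membrane-anchored inhibitor, averaged 8.83 in DU145 and 7.04 in LNCaP. TFPI2, a secreted inhibitor of serine proteases, averaged 9.45 in DU145 and 4.58 in LNCaP. All 3 were above the floor in DU145 and under it in LNCaP, where 0 of the 6 inhibitors of this list passed it. Over all named genes, 3 of the 6 were higher in DU145 and 3 lower, where 85.4% of genes were called. With centred arrays, 3 were higher and 2 lower. Those lower as deposited were A2M (-0.95), TIMP3 (-0.61) and TIMP4 (-0.38). RECK in DU145 had 9.10 with siTET2, against 8.74 with siControl and 8.76 with nc, differences of 0.36 and 0.34. The common fit gave RECK 0.32 (SE 0.103, limma adjusted p = 0.217) and TIMP1 -0.03 (limma adjusted p = 0.933). With miR-29b, the leading inhibitor in DU145 was TFPI2, at -0.16 from nc and -0.31 from siControl.

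Of 12 genes of the plasminogen system measured, 6 were higher in DU145 and 6 lower over all named genes, where 85.4% of genes were called. With centred arrays, 6 were higher and 5 lower. ANXA2 and S100A10, which form a cell-surface complex that binds plasminogen, were among those higher, as urokinase and its receptor were. ANXA2 averaged 12.48 in DU145 and 5.73 in LNCaP, a difference of 6.75 (limma adjusted p = 2.92e-10). S100A10 averaged 13.15 in DU145 and 7.20 in LNCaP, a difference of 5.95 (limma adjusted p = 6.38e-10). LRP1, an endocytic receptor that clears urokinase with its inhibitor, averaged 9.17 in DU145 and 7.74 in LNCaP. PLGRKT, another plasminogen receptor, went the other way, with 6.18 in DU145 and 8.44 in LNCaP, a difference of -2.26 (limma adjusted p = 4.21e-07). TFPI, an inhibitor of coagulation proteases, averaged 10.05 in DU145 and 10.79 in LNCaP. Plasminogen itself (PLG) was low, with 4.48 in DU145 and 5.95 in LNCaP.

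SERPINE2, a serpin that inhibits urokinase, had 7.33 in DU145 with siTET2, against 7.84 with siControl and 7.73 with nc, differences of -0.52 and -0.40. LRP1 in LNCaP had 7.90 with siTET2, against 7.51 with siControl and 7.71 with nc. With miR-29b, the largest difference from nc in this list was that of MRC2, a collagen receptor that joins the urokinase receptor complex, in DU145 and that of TFPI in LNCaP. MRC2 in DU145 was at -0.50 from nc but 0.02 from siControl, and TFPI in LNCaP was at 0.22 from nc and -0.26 from siControl. Both therefore lay between the controls of their line.

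HPN (hepsin) and ST14 (matriptase) are membrane serine proteases that activate the urokinase precursor. HPN averaged 6.18 in DU145 and 9.47 in LNCaP, a difference of -3.28 (limma adjusted p = 3.5e-09). ST14 averaged 7.54 in DU145 and 10.14 in LNCaP, a difference of -2.60 (limma adjusted p = 1.56e-08). FURIN went the other way, with 8.86 in DU145 and 8.23 in LNCaP, a difference of 0.63 (limma adjusted p = 0.000354). So did CTSB, with a difference of 1.58 (limma adjusted p = 4.08e-07), and CTSL, with 1.35 (limma adjusted p = 5.05e-07). The list also holds the inhibitors SPINT1 and SPINT2, so its counts are not of activators alone. Of its 14 genes measured, 3 were higher in DU145 and 8 lower over all named genes, where 85.4% of genes were called. SPINT1 (-0.92) was among those lower. With centred arrays, 5 were higher and 8 lower. With siTET2, the median difference of the 8 genes of this list above the floor in DU145 was -0.09, against -0.01 for all genes. That of the 11 in LNCaP was 0.17, against 0.01. FURIN, a convertase that activates membrane-type metalloproteinases, led in DU145, with 0.39 from siControl and 0.11 from nc. KLK4, a kallikrein, led in LNCaP, with 0.41 and 0.24. SPINT1, an inhibitor of hepsin and matriptase, led with miR-29b in both lines, with -0.25 from nc and -0.28 from siControl in DU145. In LNCaP it stood at -0.40 from nc but -0.04 from siControl.

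ADAM10, a sheddase, was the leading ADAM gene with siTET2 in both lines. It had 11.37 with siTET2, 11.73 with siControl and 11.65 with nc in DU145, and 11.34, 11.80 and 11.57 in LNCaP. The siTET2 array was below both controls in each line, and the common fit gave -0.41 (SE 0.0869, limma adjusted p = 0.0915). With miR-29b, ADAM8 led in DU145 at -0.46 from nc and -0.13 from siControl, and ADAMTS1 led in LNCaP at -0.31 and -0.06.

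Of 19 AP-1, ETS and NF-kappaB factors measured, 10 were higher in DU145 and 6 lower over all named genes (12 and 3 with centred arrays), where 85.4% of genes were called. ETS1 averaged 9.98 in DU145 and 6.10 in LNCaP, a difference of 3.88 (limma adjusted p = 2.48e-07). FOSL1, an AP-1 member, averaged 10.36 in DU145 and 7.58 in LNCaP, a difference of 2.77 (limma adjusted p = 3.27e-07). With siTET2 in DU145, the 16 factors above the floor had a median difference of 0.19, against -0.01 for all genes. Of these, 2 were 1.5-fold higher, ETS1 and JUN (0.64), against 90 of all 9424 genes. Between the DU145 controls, 1 of the 16, again JUN, was 1.5-fold higher with siControl than with nc, against 15 of all 9373 genes. ETS1 had the largest siTET2 difference of these factors in DU145. It had 10.63 with siTET2, 9.83 with siControl and 9.78 with nc, differences of 0.81 and 0.85. In LNCaP, where ETS1 is low, JUN led with 0.40 from siControl and 0.28 from nc, and the median of 11 factors was 0.09. The common fit of siTET2 gave ETS1 0.32 (SE 0.245, limma adjusted p = 0.603). With miR-29b, the leading factors were ELK1 in DU145, at -0.29 from nc and 0.02 from siControl, and RELB in LNCaP, at -0.27 and 0.17.

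Of 16 inducers measured, 10 were higher in DU145 and 6 lower over all named genes (10 and 4 with centred arrays), where 85.4% of genes were called. EREG, an EGF receptor ligand, averaged 11.29 in DU145 and 6.11 in LNCaP, and in DU145 it had 10.94 with siTET2, 11.55 with siControl and 11.33 with nc. Its differences were -0.61 and -0.39. HBEGF, another ligand of that receptor, had 7.76 with miR-29b in LNCaP, against 8.21 with nc and 8.12 with siControl, and 7.83 with siTET2. TGFB1 led with miR-29b in DU145, at -0.26 from nc and -0.02 from siControl.

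Among matrix genes and their receptors, ITGA5, a subunit of a fibronectin receptor, had 10.93 with siTET2 in DU145, against 10.01 with siControl and 10.22 with nc, differences of 0.92 and 0.71. In LNCaP its siTET2 difference was 0.18 from siControl, and the common fit gave 0.55 (SE 0.166, limma adjusted p = 0.191). With miR-29b in LNCaP, the 8 genes above the floor had a median of -0.18, against 0.02 for all genes, led by LAMC1, a laminin chain, with 10.88, against 11.23 with nc and 11.40 with siControl. In DU145 the 12 genes had a median of -0.10, against -0.04 for all genes, and COL1A1 stood at 0.34 from nc, at a level near the median of named genes.

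**Figure D4:**
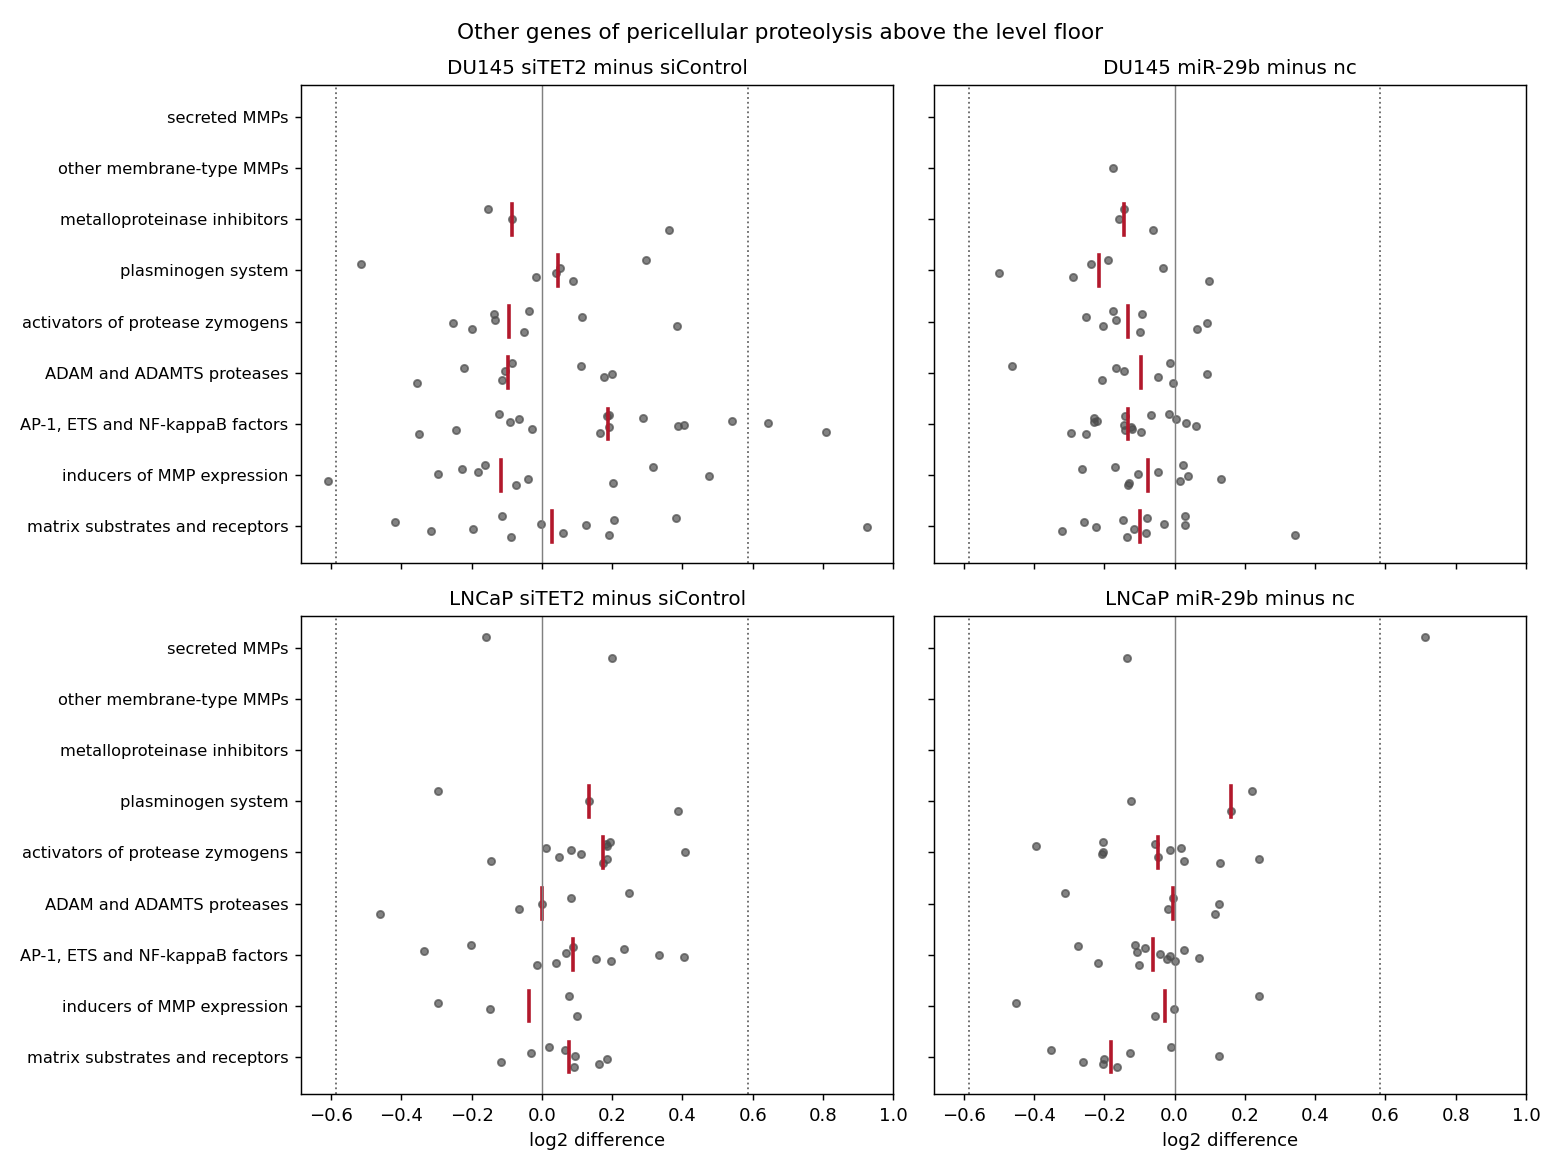
Log2 difference (horizontal axis) of each listed gene above the level floor, 1 point a gene, for siTET2 minus siControl and miR-29b minus nc, with DU145 in the upper and LNCaP in the lower panels; red bars are list medians (lists of 3 or more) and dotted lines mark 1.5-fold. ITGA5 at 0.92 and ETS1 at 0.81 lie farthest right with siTET2 in DU145, and MMP7 at 0.71 lies alone with miR-29b in LNCaP.

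MMP15 and TIMP2 were the members above the floor in both lines. Each was compared with the rest of a set of 8082 genes over the 8 arrays, after each line's mean was taken off. The genes most like MMP15 were TIMM13 (Pearson r = 0.97) and P3H4 (r = 0.97). The genes most like TIMP2 were MCM3AP-AS1 (r = 0.98) and ELL2 (r = 0.98). These are descriptions over 8 arrays that share constructs and normalization, and the closest of so many genes is high by selection.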

How the data were processed

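Total RNA of 8 cultures, 1 per cell line and construct, was hybridised to Affymetrix whole-transcript arrays. The authors deposited log2 values of 33297 probe sets, made with Affymetrix Expression Console and RMA per the submitters' processing notes. RMA corrects background, normalizes by quantiles and summarises probes. Which arrays were normalized together is not given in the sources used here, and the log2 scale is read from the values. The number of arrays limits the precision.

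The platform's annotation gave 1 symbol to 19460 probe sets, several to 1754 and none to 12083. Of the resulting 18417 genes, 769 had several probe sets, and the one with the highest mean stood for the gene. Sequences and coordinates came from RefSeq (GRCh38.p14), where 4 of the 8 genes have a promoter entry.

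Differences common to both lines were fitted with limma 3.58.1 in R 4.3.3 (lmFit and eBayes) on 9209 genes. An interaction of line and construct has no residual degrees of freedom and was not tested. Nothing in the labels makes the arrays replicates of a group. The spread behind the SEs and p-values is the departure of the arrays from adding line and construct. It may be technical, and it also takes in any response that differs between the lines. The scripts were tested on simulated data. There the siTET2 fit called 85% of the genes changed by 1.0 on the log2 scale. It called only 36% of those changed by 0.5.

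The 8 genes and all lists were chosen with earlier results of these data known. Named were the 8 genes, TET2, in each list the gene above the floor with the largest difference per treatment contrast, and the 2 genes most like each member above the floor in both lines. Of the list genes that passed between lines, only some were described. Among those left out are MET (5.15), CD44 (4.84) and FN1 (-4.46, all DU145 minus LNCaP). MMP7, MMP10, MMP26, TFPI2, PLGRKT, PLG, CTSB and CTSL were named for their line levels after these were seen. TIMP1, ANXA2, S100A10, HPN, ST14 and FOSL1 led no list with a treatment and were described mainly for their line differences. So were A2M, TIMP3 and TIMP4.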

Additional observations from a re-analysis of the deposited data

Results flagged for a closer look

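MMP15 was singled out because its siTET2 difference had opposite signs in the lines: -0.13 from siControl in DU145 and 0.11 in LNCaP. The difference between the lines was not tested, since 1 array per line and construct leaves no spread for it. Both values are smaller than the distance between the control arrays, -0.31 in DU145 and -0.32 in LNCaP (siControl minus nc).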

How the results depend on the processing

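With 1 array per group, no value within a line has a replicate, and levels under the floor have little signal over background. Alternatives that count each member within a line gave the same number as reported except as follows. Read against the other control array, 1 gene (MMP1) was 1.5-fold apart in DU145 with siTET2 and 1 (MMP1) with miR-29b, and 0 in LNCaP with miR-29b. The mean of both controls gave 1 (MMP1) in DU145 with miR-29b, and a stricter floor gave 0 in LNCaP with miR-29b. The 35 genes called for siTET2 became 1 without a floor, 87 with a stricter floor, 113 with a variance trend and 18 against nc. They became 0 to 136 when 1 array was left out, which leaves 2 residual degrees of freedom and a lone array assumed to vary like the others. The count was 0 without the siControl array of either line and without DU145 siTET2, 11 without either miR-29b array, and 136 without LNCaP siTET2. The 7532 genes called between the lines (81.8% of 9209) became 15722 without a floor (85.4% of 18417). With a stricter floor, which tests fewer genes, they became 3719. An alternative chosen after seeing the data, no floor with each array centred on its median, gave 1 gene for siTET2 and 14481 between the lines. Changes of sign were few, and their cause was not tested. The MMP15 line difference turned to 0.032 with centred arrays, with and without the floor. With 1 array left out, the MMP15 siTET2 difference ran from -0.20 to 0.19, that of PLAUR from -0.0061 to 0.34, and the PLAUR miR-29b difference from -0.16 to 0.19. PLAUR with siTET2 was -0.045 against nc. The MMP15 line difference passed with a variance trend (limma adjusted p = 0.0462), with the mean of probe sets (0.0495) and without either miR-29b array (-0.39, 0.00288). Cell line and construct are both terms of each fit, and the labels give no replicate numbers for a further block.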
